A study of Mus musculus with 10 samples.

Results

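The Egr factors are zinc finger transcription factors of the immediate early class, and the Nab proteins are the corepressors that bind Egr1, Egr2 and Egr3. All rows of the deposited gene table whose symbol was *Egr1*, *Egr2*, *Egr3*, *Egr4*, *Nab1* or *Nab2* were taken, which gave 6 of the 15900 listed genes, and all 6 passed the filter on low values. Transcript levels had been measured by cap analysis of gene expression (CAGE), which sequences a short tag from the capped 5′ end of each transcript, in the whole hippocampus of 10 male ICR mice aged 9 to 10 weeks. Levels are given in CPM, the tags of a gene scaled to the same total over all listed genes in every library. Since a transcript yields one tag whatever its length, CPM values can be set side by side between genes.

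There were 5 groups of 2 mice. The pre-SE mice, called untreated in the labels, were sampled without SE; according to the study's methods, control mice had received saline in place of pilocarpine. The SE 6 h and SE 2 days mice received pilocarpine (PILO, 290 mg/kg), a muscarinic agonist that sets off status epilepticus (SE), which was defined by 5 generalized convulsive seizures, and were killed 6 h or 2 days later. The SE + LEV 6 h and SE + LEV 2 days mice had the same SE and then oral levetiracetam (LEV, 360 mg/kg), an antiseizure drug that binds a synaptic vesicle protein, given 1 time in the 6 h group and 5 times in the 2 days group. According to the methods, methylscopolamine (1 mg/kg) preceded PILO by 30 min and diazepam (10 mg/kg) ended SE, so every SE mouse, with or without LEV, had also received both. The 6 h and 2 days LEV groups thus differed in the number of doses as well as in time.

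In neurons, calcium entry and the MAP kinase cascade act on the factors Srf, Elk and Creb already bound at the *Egr* promoters, and *Egr* transcripts appear within minutes of firing. The Egr proteins bind GC-rich sites and switch on genes of synaptic plasticity. Nab1 and Nab2 dock on Egr1, Egr2 and Egr3 and bring in the NuRD chromatin remodelling complex, and *Nab2* is itself an Egr target, which closes a feedback loop.

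In the NCBIM37 (mm9) annotation, *Egr1* (ENSMUSG00000038418) lies on the plus strand at chr18:35020861-35024638, *Egr2* (ENSMUSG00000037868) on the plus strand at chr10:66998223-67004936, and *Egr3* (ENSMUSG00000033730) on the plus strand at chr14:70477252-70479964. On the minus strand are *Egr4* (ENSMUSG00000071341) at chr6:85461125-85463583, *Nab1* (ENSMUSG00000002881) at chr1:52514138-52557523 and *Nab2* (ENSMUSG00000025402) at chr10:127097974-127105624. *Nab2* overlaps *Stat6* and *Tmem194* on the other strand, which had 2.35 to 8.87 and 3.09 to 7.06 CPM in the 10 libraries.

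RefSeq promoter windows of 300 bases (250 before to 50 after a transcript start, GRCm38.p6, a later build than that of the files) were found for 4 of the 6 members. They are shown for *Egr2*, *Egr4* and *Nab1*, because they differ in the sites they hold for Srf, which acts on *Egr* genes, and for the Egr proteins themselves. The windows are chr10:67537619-67537918 (plus strand) for *Egr2*, chr6:85513540-85513839 (minus strand) for *Egr4* and chr1:52500399-52500698 (minus strand) for *Nab1*. Capitals mark a match to the CArG box bound by Srf (CC, then A or T at each of the next bases, then GG) or to 2 Egr sites, GCGTGGGCG and GCGGGGGCG, searched on both strands.

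Egr2: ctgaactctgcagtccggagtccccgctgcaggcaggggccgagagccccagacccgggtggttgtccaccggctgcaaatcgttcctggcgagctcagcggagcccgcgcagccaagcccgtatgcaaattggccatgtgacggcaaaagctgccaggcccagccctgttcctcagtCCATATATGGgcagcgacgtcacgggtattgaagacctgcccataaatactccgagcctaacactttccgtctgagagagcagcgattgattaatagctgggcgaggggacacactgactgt
Egr4: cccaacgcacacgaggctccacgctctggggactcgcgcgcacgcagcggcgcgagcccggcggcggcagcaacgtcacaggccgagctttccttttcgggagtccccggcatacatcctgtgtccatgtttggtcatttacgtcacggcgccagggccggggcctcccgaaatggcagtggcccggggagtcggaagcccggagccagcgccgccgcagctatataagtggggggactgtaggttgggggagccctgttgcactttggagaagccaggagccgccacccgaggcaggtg
Nab1: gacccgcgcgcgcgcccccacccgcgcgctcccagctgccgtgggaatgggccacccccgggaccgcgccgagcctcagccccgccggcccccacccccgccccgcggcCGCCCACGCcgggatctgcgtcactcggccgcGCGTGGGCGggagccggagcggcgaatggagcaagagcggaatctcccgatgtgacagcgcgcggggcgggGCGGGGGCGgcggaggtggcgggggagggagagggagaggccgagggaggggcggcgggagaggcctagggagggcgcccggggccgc

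The *Egr2* window held a CArG box that began 72 bases before the start. The same box lies in 2 other *Egr2* windows that overlap this one, and CCTTTTTTGG, a second box, in the window at chr10:67537316-67537615. A CArG box was found in 1.63% of 32851 promoter windows of this length. The *Nab1* window held GCGTGGGCG 109 bases before the start and again, read on the other strand as CGCCCACGC here, 141 bases before it, and GCGGGGGCG 38 bases before it. These 2 sites were found in 0.612% and 2.91% of all windows. None of these letters was found in the *Egr4* window or in that of *Nab2*. The cyclic AMP response element TGACGTCA (1.79% of windows) and TATAAA (13.6%) were found in no member's window. Only these exact letters were searched, so near forms, such as tatataag in the *Egr4* window, were not counted. These matches are descriptions of the sequence, and binding was not measured.

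The tags recovered from the CPM values summed, over the listed genes, to 10540698 to 51710968 per library, with the SE + LEV 6 h replicate 2 mouse lowest. In CPM, 1 tag was worth 0.0193 to 0.0949. The smallest count behind any member's value was 36 tags, for *Egr2* in pre-SE replicate 1. The neuronal markers *Rbfox3*, *Grin1*, *Snap25* and *Syt1* were all present, summing to 2910 to 4962 CPM over the 10 libraries. Markers of the choroid plexus, a neighbouring tissue, varied from 7.99 to 3959 CPM within groups as well as between them. The labels give no processing batch. With 2 mice a group, an exact permutation test cannot go below p = 0.33, so differences were tested in limma, across all 15851 genes that passed the filter, on log2(CPM + 0.1). A logFC is therefore on the log2 scale, its standard error is SE(logFC), and a gene was called at a Benjamini-Hochberg adjusted p at or under 0.05. The p-values rest on the spread between single mice within groups, which limma combined for each gene with a trend fitted over all genes.

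At 6 h after SE all 4 Egr factors were higher in both SE mice than in both pre-SE mice, from 5.59-fold for *Egr3* to 22.8-fold for *Egr2* on group means. *Egr2*, *Egr3* and *Egr4* rose by limma, while *Egr1*, although 9.58-fold higher, missed the threshold. These 3 of 6 members called higher compare with 2.76% of all genes tested. The Nab corepressors were about 2.06-fold (*Nab2*) and 2.05-fold (*Nab1*) higher and were not called by limma.

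*Egr1*, the best known of the family and a standard marker of neuronal firing, had 97.25 and 246.68 CPM in the pre-SE mice. It reached 2258.58 and 1034.77 CPM in the SE 6 h mice, the highest values of any member. Both SE 6 h mice lay above both pre-SE mice, but the 2 mice of each group differed by more than 2-fold. The logFC was 3.30 (SE(logFC) 0.79, 95% confidence interval 1.54 to 5.07, limma adjusted p = 0.058). Over the 22 alternative settings tried, 10 of which left out 1 mouse each, the adjusted p ran from 6.4e-06 to 0.28, and 7 of them called *Egr1*.

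*Egr2*, which also directs hindbrain patterning and the myelination of peripheral nerve, was the scarcest factor before SE, at 1.24 and 8.08 CPM. It had 74.35 and 137.72 CPM in the SE 6 h mice. The groups were far apart, with the lower SE mouse above the higher pre-SE mouse, and the logFC of 4.94 (SE(logFC) 0.78, 95% confidence interval 3.20 to 6.67, limma adjusted p = 0.0098) was the largest among the members in this comparison. Without SE 6 h replicate 2 the adjusted p was 0.096, and the other 21 alternatives kept the call. In 4 of 5 groups the mouse with more choroid plexus marker tags also had more *Egr2* tags, against 3 of 5 for *Egr1*, *Egr3*, *Egr4* and *Nab2* and 0 of 5 for *Nab1*. The part of this tissue in the members' values was not tested.

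For *Egr3*, whose product shares targets with Egr1 and is known to act later in the response to activity, pre-SE levels were close together, at 81.39 and 70.68 CPM. SE 6 h mice had 603.76 and 246.94 CPM. The groups did not overlap, and *Egr3* rose with a logFC of 2.35 (SE(logFC) 0.48, 95% confidence interval 1.27 to 3.42, limma adjusted p = 0.03). The call was lost in 4 of the 22 alternatives, those without either pre-SE mouse, without SE 6 h replicate 1 or without the mean-variance trend, with the adjusted p at 0.16 at most.

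*Egr4*, the fourth factor, had 25.62 and 78.88 CPM before SE. In the SE 6 h mice it stood at 703.99 and 591.18 CPM, close to each other and 12.4-fold above pre-SE on the means. It rose with a logFC of 3.84 (SE(logFC) 0.81, 95% confidence interval 2.03 to 5.65, limma adjusted p = 0.035). This call was the least stable of the 3: it held in 13 of 22 alternatives. It was lost in the edgeR quasi-likelihood test, without the mean-variance trend, with the replicate number as a block, and without any 1 of the pre-SE, SE 6 h or SE 2 days mice, with the adjusted p at 0.21 at most.

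The corepressors moved less. *Nab1*, which is expressed in many tissues at a steady level, had 19.18 and 10.33 CPM before SE and 33.61 and 26.93 CPM at 6 h. *Nab2*, the inducible corepressor, had 39.73 and 35.43 CPM before SE and 110.24 and 44.47 CPM at 6 h. The groups did not overlap for either gene, but the *Nab2* difference rested on 1 mouse, since SE 6 h replicate 2 was only slightly above the pre-SE mice. The logFC was 1.09 for *Nab1* (95% confidence interval 0.18 to 2.00, limma adjusted p = 0.21) and 0.90 for *Nab2* (95% confidence interval 0.09 to 1.70, adjusted p = 0.23). DESeq2 called *Nab2* (adjusted p = 0.045), in a comparison where it called 1008 of 15851 genes higher. Without SE 6 h replicate 1 the *Nab2* logFC was 0.24, and without replicate 2 it was 1.55 and was called by limma. The median logFC over all genes was -0.13 in this comparison and -0.00 once the libraries were rescaled by median-of-ratios factors, which moved *Egr1* to 3.43 and *Egr2* to 5.06. All 6 members had an unadjusted p under 0.05 in the higher direction (9.21% of all genes) and all 6 had groups that did not overlap in that direction (18.6%).

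**Figure D1:**
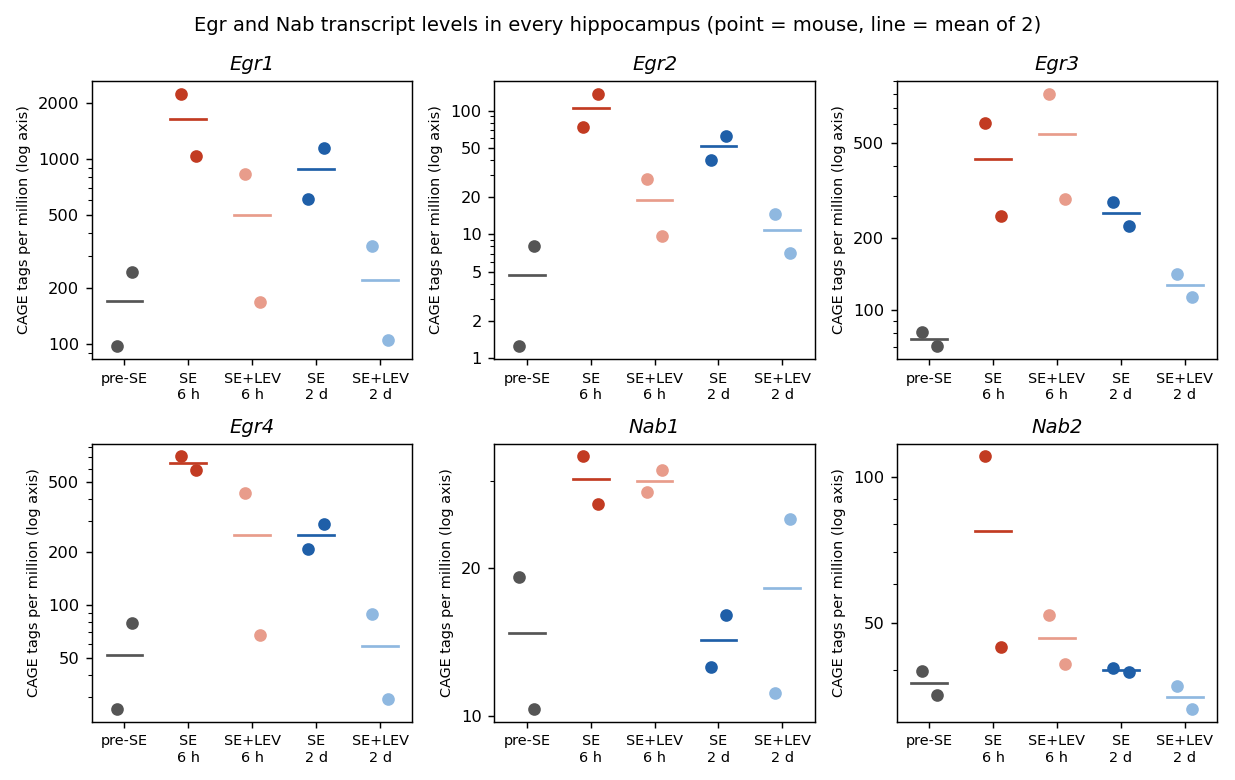
CPM of each member (log axes, with a scale of its own for each gene) in every mouse of the 5 groups; points are mice and lines are means of 2. *Egr1*, *Egr2* and *Egr4* were high in both SE groups and lower with LEV at the same time, and *Egr3* at 6 h overlapped between the mice with LEV (290.78 and 800.19 CPM) and without (246.94 and 603.76 CPM).

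At 2 days after SE the Egr factors still stood above pre-SE in both mice, and *Egr2* was the one member called, against 5.07% of all genes called higher in this comparison. *Egr2* was at 40.36 and 62.71 CPM, 11.1-fold the pre-SE mean, and rose with a logFC of 3.93 (SE(logFC) 0.78, 95% confidence interval 2.19 to 5.66, limma adjusted p = 0.016). That call held in 20 of 22 alternatives and was lost without pre-SE replicate 1 or SE 2 days replicate 2, with the adjusted p at 0.16 at most. The 2 days mice had 608.43 and 1153.84 CPM of *Egr1*, 282.84 and 224.91 of *Egr3*, and 209.88 and 290.25 of *Egr4*.

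None of these 3 overlapped with pre-SE, yet none was called. *Egr1* had a logFC of 2.43 (limma adjusted p = 0.11), *Egr3* one of 1.73 (adjusted p = 0.068) and *Egr4* one of 2.45 (adjusted p = 0.12). By the edgeR exact test on the tags of the 2 groups compared, all 4 Egr factors were called, whereas the edgeR quasi-likelihood test called *Egr2* and no other member. Over all 15851 genes tested, the exact test called 1354 higher and the quasi-likelihood test 799, beside 803 by limma. Neither Nab gene was called at 2 days by limma, DESeq2 or either edgeR test: *Nab1* had 12.59 and 16.00 CPM, with a logFC of 0.01 (95% confidence interval -0.90 to 0.92), and *Nab2* had 40.24 and 39.55 CPM, with a logFC of 0.09 (95% confidence interval -0.72 to 0.89). The summed neuronal markers, all 4 of them present, were at 4638 to 4962 CPM in pre-SE, 3386 to 4653 in SE 6 h and 2910 to 3598 in SE 2 days, so that they overlapped with pre-SE at 6 h and were lower at 2 days. Their part in the Egr values was not tested. In whole tissue, a change in the number of cells of a type and a change in RNA per cell cannot be told apart. The 4 Egr factors were the members with an unadjusted p under 0.05 in the higher direction (12.5% of all genes) and those whose groups did not overlap (26.3%).

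Between 6 h and 2 days after SE all 6 estimates were negative, and none was called by limma; 1.11% of all genes were called lower. The 2 Nab genes had an unadjusted p under 0.05 (7.29% of all genes lower), with a logFC of -1.08 for *Nab1* (adjusted p = 0.18) and -0.81 for *Nab2* (adjusted p = 0.25). *Nab1*, *Nab2*, *Egr2* and *Egr4* did not overlap between the times, against 20.1% of all genes that were lower without overlap. *Egr1* (-0.87), *Egr2* (-1.01), *Egr3* (-0.61) and *Egr4* (-1.39) had logFC values of like size but with wider errors. The edgeR exact test called *Nab1* and *Egr4* lower here, with 637 of 15851 genes called lower by it. DESeq2 and the edgeR quasi-likelihood test called no member.

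**Figure D2:**
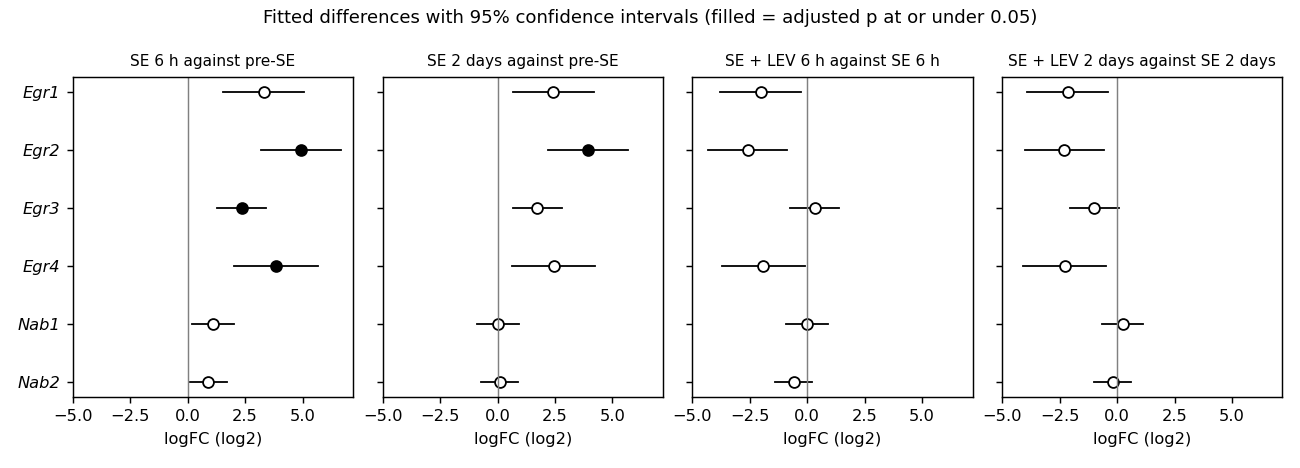
Fitted logFC (log2 scale) of the 6 members in 4 comparisons, with 95% confidence intervals as bars; filled points had an adjusted p at or under 0.05. After SE the 3 filled points at 6 h are *Egr2*, *Egr3* and *Egr4* and the one at 2 days is *Egr2*; with LEV no point is filled.

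Whether LEV given after SE altered these levels was asked at both times. At 6 h *Egr1*, *Egr2* and *Egr4* were lower in both LEV mice than in both SE mice, by 3.28-fold, 5.60-fold and 2.57-fold on group means, whereas *Egr3* was not. No member was called by limma, DESeq2 or the edgeR quasi-likelihood test, in a comparison where 0.0126% of all genes were called lower. Of the 6 members, 3 had an unadjusted p under 0.05 (3.42% of all genes lower), and the same 3 had groups that did not overlap (13.4%).

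*Egr1* had 834.85 and 169.15 CPM in the SE + LEV 6 h mice, with a logFC of -2.02 against SE 6 h (SE(logFC) 0.79, 95% confidence interval -3.79 to -0.26, limma adjusted p = 1). *Egr2* had 28.11 and 9.77 CPM, with a logFC of -2.60 (SE(logFC) 0.78, 95% confidence interval -4.34 to -0.87, adjusted p = 0.69), and *Egr4* had 437.49 and 67.26 CPM, with a logFC of -1.91 (SE(logFC) 0.81, 95% confidence interval -3.72 to -0.10, adjusted p = 1). In each of these genes the second LEV mouse, the one with the fewest tags in all, was far below the first. Of the members, the edgeR exact test called *Egr2* alone (adjusted p = 0.0014), and it called 118 of 15851 genes lower.

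*Egr3* took another course. Its levels with LEV at 6 h, 800.19 and 290.78 CPM, overlapped with those without it, and the logFC of 0.32 had a 95% confidence interval of -0.75 to 1.40. *Nab1* (28.44 and 31.59 CPM) and *Nab2* (51.97 and 41.08 CPM) overlapped between the groups too, with logFC values of -0.01 (95% confidence interval -0.91 to 0.90) and -0.60 (-1.40 to 0.20).

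At 2 days all 4 Egr factors, *Egr3* included, were lower in both SE + LEV mice than in both SE mice. *Egr1* had 337.42 and 105.15 CPM, *Egr2* 14.65 and 7.11, *Egr3* 141.74 and 113.81, and *Egr4* 88.75 and 29.08. The logFC against SE 2 days was -2.15 for *Egr1* (95% confidence interval -3.92 to -0.39), -2.29 for *Egr2* (-4.03 to -0.55), -0.99 for *Egr3* (-2.06 to 0.08) and -2.28 for *Egr4* (-4.09 to -0.47). No member was called by limma, with an adjusted p of 1 for each of the 4, nor by DESeq2 or the edgeR quasi-likelihood test; limma called 0% of all genes lower. The edgeR exact test called *Egr2* (adjusted p = 0.011), among 10 of 15851 genes that it called lower. *Egr1*, *Egr2* and *Egr4* had an unadjusted p under 0.05 (1.39% of all genes lower), and 5 of 6 members, the Egr factors and *Nab2*, had groups that did not overlap (12.2%). *Nab2* had 37.06 and 33.15 CPM, a logFC of only -0.19, and *Nab1* had 11.16 and 25.14 CPM, a logFC of 0.24.

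Averaged over both times, the LEV difference was -2.09 for *Egr1* (SE(logFC) 0.56, unadjusted p = 0.0039 and adjusted p = 0.58 by limma), -2.45 for *Egr2* (0.55, 0.0012 and 0.37) and -2.09 for *Egr4* (0.58, 0.0044 and 0.60). All 4 LEV mice lay below the SE mice of their own time for these 3 genes. For *Egr1*, the study reports from real-time PCR of the hippocampus that LEV did not affect the rise after SE. That time course included 2 days but not 6 h. The 3 genes had an unadjusted p under 0.05 where 3.63% of all genes did so in the lower direction, and limma called 0% lower. For *Egr3* the average was -0.33 (95% confidence interval -1.09 to 0.43), for *Nab1* 0.12 (-0.53 to 0.76) and for *Nab2* -0.39 (-0.96 to 0.18).

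The LEV difference at 2 days was also set against that at 6 h in 1 interaction term. No member was called and none had an unadjusted p under 0.05 by limma, and no member was called by DESeq2 or the edgeR quasi-likelihood test; 0% of all genes were called lower and 0.795% had an unadjusted p under 0.05 in that direction. *Egr3* had the estimate farthest from 0, -1.31 (95% confidence interval -2.83 to 0.21, unadjusted p = 0.084, adjusted p = 1), so that its unlike values at the 2 times were not shown to differ in their LEV effect. *Egr1* had -0.13, with an interval from -2.63 to 2.37.

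Against pre-SE, the SE + LEV 6 h mice had all 6 estimates above 0. None was called by limma (0.315% of all genes called higher), and 4 had an unadjusted p under 0.05 (5.53%). *Egr3* was nearest to a call, with a logFC of 2.67 (SE(logFC) 0.48, adjusted p = 0.061). Both DESeq2 and the edgeR exact test called *Egr3*, with 354 and 423 of 15851 genes called higher by them. *Egr2* had a logFC of 2.33 (adjusted p = 0.34), *Egr4* one of 1.93 (adjusted p = 0.49) and *Nab1* one of 1.08 (adjusted p = 0.42), and *Egr1* had 1.28 (adjusted p = 0.64). By SE + LEV 2 days no member was called by limma, DESeq2 or either edgeR test (limma called 2.83% of all genes higher) and 0 had an unadjusted p under 0.05 (8.86%). *Egr1* (0.28), *Egr4* (0.18), *Nab1* (0.25) and *Nab2* (-0.10) had logFC values within 0.3 of 0, while *Egr2* had 1.64 and *Egr3* 0.74. *Egr3* was the only member with both mice above both pre-SE mice, which was so for 22.6% of all genes. The intervals were wide, -1.48 to 2.05 for *Egr1*, so these values do not show a return to the starting level.

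Among LEV mice, the 2 days group against the 6 h group gave no call by limma (0.0757% of all genes called lower). *Egr3* had a logFC of -1.92 (SE(logFC) 0.48, adjusted p = 0.089), and it was the 1 member with an unadjusted p under 0.05 (2.7% of all genes lower). DESeq2 and the edgeR exact test called it, with 106 and 83 of 15851 genes called lower by them. For *Egr3* the 6 h LEV mice, at 800.19 and 290.78 CPM, were both above the 2 days LEV mice, at 141.74 and 113.81 CPM. *Nab1* and *Nab2* were lower at 2 days without overlap too. Such groups were thus found in 3 of 6 members, against 14.6% of all genes.

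The order of group means differed between members. For *Egr1* it ran from SE 6 h (1647 ± 865 CPM, SD, n = 2) through SE 2 days (881 ± 386), SE + LEV 6 h (502 ± 471) and SE + LEV 2 days (221 ± 164) to pre-SE (172 ± 106), and each neighbouring pair overlapped. *Egr2* had the same order, with 106 ± 44.8, 51.5 ± 15.8, 18.9 ± 13.0, 10.9 ± 5.33 and 4.66 ± 4.84 CPM, and here SE 6 h, SE 2 days and SE + LEV 6 h did not overlap with one another. *Egr4* fell from 648 ± 79.8 CPM at SE 6 h, clear of the rest, to 252 ± 262 and 250 ± 56.8 CPM in SE + LEV 6 h and SE 2 days, which overlapped, and then to 58.9 ± 42.2 and 52.2 ± 37.7 CPM in SE + LEV 2 days and pre-SE, which overlapped too.

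*Egr3* alone among the members had its highest mean in SE + LEV 6 h, 545 ± 360 CPM, which overlapped with the 425 ± 252 CPM of SE 6 h. Its next means were 254 ± 41.0 in SE 2 days, 128 ± 19.7 in SE + LEV 2 days and 76.0 ± 7.57 in pre-SE, and these last 3 groups did not overlap. *Nab1* fell into 2 levels, with 30.3 ± 4.72 and 30 ± 2.23 CPM in SE 6 h and SE + LEV 6 h and 18.1 ± 9.89, 14.8 ± 6.26 and 14.3 ± 2.41 CPM in SE + LEV 2 days, pre-SE and SE 2 days. Both 6 h groups were above every mouse of the other 3 groups. *Nab2* had 77.4 ± 46.5 CPM in SE 6 h and stayed between 35.1 ± 2.76 and 46.5 ± 7.70 CPM in the other groups.

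A ratio of 2 genes within a library does not depend on how libraries are scaled. The number of *Egr3* tags per *Egr1* tag, a ratio chosen after the values had been seen and so given with no test, was 0.267 and 0.239 in the SE 6 h mice and 0.958 and 1.72 in the SE + LEV 6 h mice. In pre-SE it was 0.837 and 0.287, in SE 2 days 0.465 and 0.195, and in SE + LEV 2 days 0.42 and 1.08. At 6 h the LEV mice were both above the SE mice, while the 2 pre-SE mice lay far apart. The ratio of *Egr4* to *Egr1* tags kept a narrower range, 0.252 to 0.571 over the 10 libraries.

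*Egr1* gave most of the tags of the family in most libraries, from 31.5% to 66.6% of all Egr tags, and *Egr3* gave from 12.3% to 54.2%. *Egr2* never gave more than 6.85%. In the SE + LEV 6 h mice *Egr3* gave 38.1% and 54.2% of Egr tags, against 16.6% and 12.3% in the SE 6 h mice. The mouse with more *Egr1* tags was the mouse with more *Egr4* tags in all 5 groups, and the mouse with more *Egr3* was the one with more *Nab2* in all 5. For *Egr1* and *Egr3* this held in 3 of 5. The pairs at 5 of 5 were the highest of all pairs of members, and the lowest, *Egr2* and *Nab1*, was at 1 of 5. How often other genes agree in this way was not counted, so these numbers describe the mice and carry no test.

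**Figure D3:**
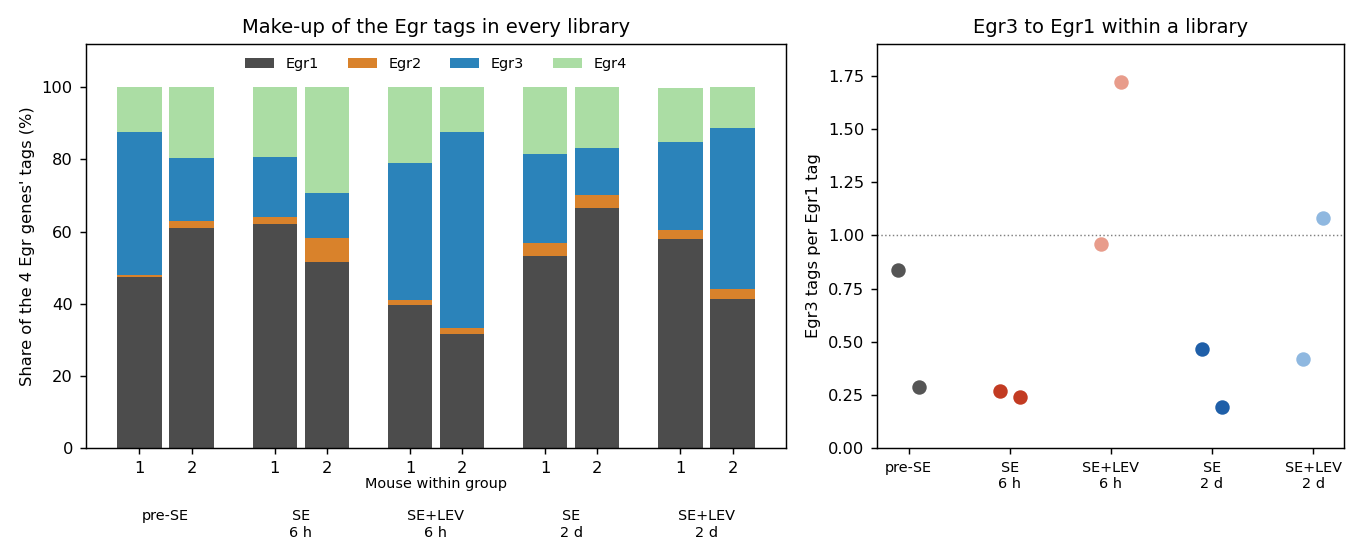
Left, share of the tags of the 4 Egr genes (%) that each gave, in every library by group and mouse. Right, *Egr3* tags per *Egr1* tag in every library, one point a mouse, with the dotted line at equal numbers. At 6 h the LEV mice (0.958 and 1.72) were above the SE mice (0.267 and 0.239), and the pre-SE mice (0.837 and 0.287) lay apart from each other.

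The balance of corepressor and factor transcripts was described by *Nab2* tags per 100 tags of the 4 Egr genes. These include *Egr4*, whose product is not among the Nab partners named above and which gave 11.4% to 29.4% of the Egr tags. The number is thus not a ratio of *Nab2* to its partners alone. Summed over the 4 genes, the 2 pre-SE mice had 205.5 and 404.3 CPM, while there were 3640.7 and 2010.6 in SE 6 h, 2100.6 and 537.0 in SE + LEV 6 h, 1141.5 and 1731.7 in SE 2 days, and 582.6 and 255.1 in SE + LEV 2 days. The number of *Nab2* tags per 100 Egr tags was 19.3 and 8.76 in pre-SE and 3.03 and 2.21 in SE 6 h. It was 3.53 and 2.28 in SE 2 days. All 4 SE mice without LEV were thus below both pre-SE mice. *Nab2* itself was not lower, with means of 37.6 CPM in pre-SE, 77.4 in SE 6 h and 39.9 in SE 2 days. The lower ratio follows from the larger number of Egr tags, as it would for any gene that rose less than they did. With LEV the number of *Nab2* tags per 100 Egr tags was 2.47 and 7.65 at 6 h and 6.36 and 13.0 at 2 days, where both mice were above both SE mice of that time. At 6 h the LEV mice overlapped with the SE mice. *Nab2* outnumbered *Nab1* in every library, by 1.3 to 3.43 tags to 1.

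**Figure D4:**
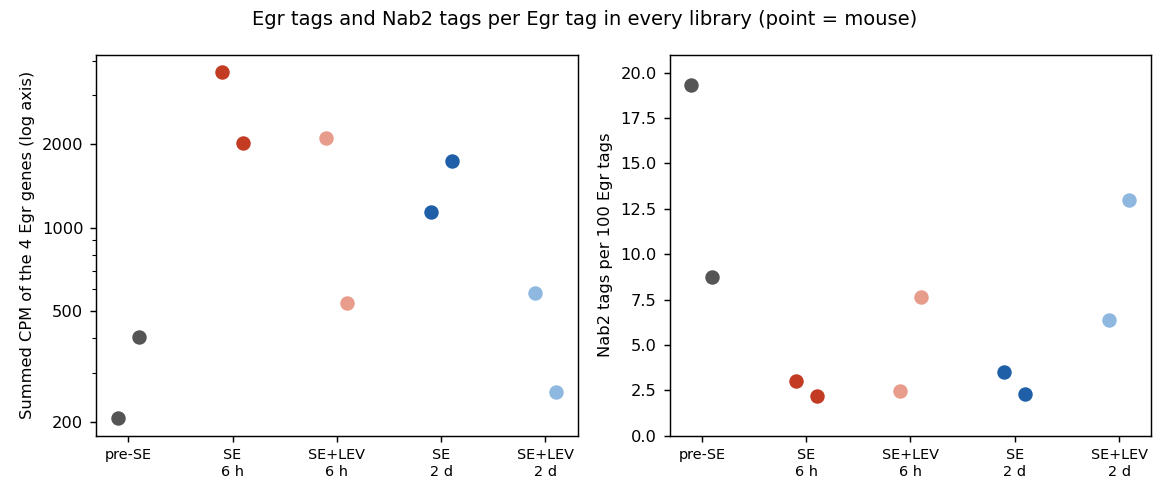
Summed CPM of the 4 Egr genes (left, log axis) and *Nab2* tags per 100 Egr tags (right) in every library, one point a mouse. The pre-SE mice had 19.3 and 8.76 *Nab2* tags per 100 Egr tags and the 4 SE mice without LEV 2.21 to 3.53.

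The list of regulators known to act upstream of the *Egr* genes held Raf, Mek and Erk kinases, Srf, its Mkl and Elk partners, and Creb1. Of these 13, 1 was called higher at 6 h and at 2 days after SE and none lower. Over all genes, 2.76% and 5.07% were called higher. The median logFC of the 13 was -0.10 and -0.20, beside -0.13 and -0.03 over all genes. The one called was *Elk3*, a ternary complex factor that partners Srf, with 3.79 and 4.33 CPM in pre-SE, 15.20 and 14.05 in SE 6 h and 17.60 and 31.48 in SE 2 days. Its logFC was 1.83 at 6 h (limma adjusted p = 0.049) and 2.51 at 2 days (adjusted p = 0.0072). *Srf* itself had a logFC of 1.36 at 6 h (adjusted p = 0.23) and *Elk1* one of -0.71 (adjusted p = 0.14). With LEV 0 of 13 were called at either time by limma, DESeq2 or either edgeR test, and 0 had an unadjusted p under 0.05. The other zinc finger factors of GC-rich sites (*Sp1*, *Sp3*, *Sp4*) were not called in any of the 10 comparisons by limma, DESeq2 or edgeR, and 0 had an unadjusted p under 0.05.

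Of the 17 listed Egr target genes, 16 were tested, and 3 rose at 6 h and 5 at 2 days after SE, with none lower, where 2.76% and 5.07% of all genes were called higher. *Arc*, the synaptic cytoskeletal gene with Egr sites in its control region, had 58.15 and 107.60 CPM in pre-SE and 2128.84 and 789.61 CPM in SE 6 h, a logFC of 4.03 (limma adjusted p = 0.0037), and was still called at 2 days (2.77, adjusted p = 0.012). *Fosl1*, a partner of Jun in the AP-1 dimer, was almost absent before SE (0.03 and 0.02 CPM) and had 10.68 and 13.16 CPM in SE 6 h and 6.78 and 24.17 in SE 2 days (adjusted p = 0.003 and 0.0014). *Icam1*, a leukocyte adhesion molecule, rose at both times (2.86 and 2.71), and *Cd44* (5.18), a hyaluronan receptor, and *Tgfb1* (2.33), a cytokine, rose at 2 days. The list's median logFC was 0.50 and 0.60.

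The called targets were not of one kind. *Arc* is a neuronal gene, while *Cd44*, *Icam1* and *Tgfb1* are known from glia, vessels and immune cells. The summed level of the astrocyte markers was 648 to 654 CPM in pre-SE, 733 to 1226 in SE 6 h and 2639 to 4012 in SE 2 days, and that of the microglial markers was 128 to 145, 56.2 to 70.5 and 209 to 210 CPM. The endothelial markers summed to 54.2 to 59.9, 107 to 169 and 92.7 to 107 CPM in the same groups, and 1 of these 4 markers, *Cdh5*, an endothelial junction gene, was called higher at 6 h (logFC 2.10, limma adjusted p = 0.0061). Their part in the target gene differences was not tested. With LEV no target was called by limma at either time, and 2 at 6 h and 3 at 2 days had an unadjusted p under 0.05, all lower, beside 3.42% and 1.39% of all genes. DESeq2 and the edgeR exact test called *Arc* lower at both times, the latter also *Fosl1* at 6 h, and the edgeR quasi-likelihood test called none. *Arc* had 307.01 and 259.76 CPM in SE + LEV 6 h mice, a logFC of -2.20 (adjusted p = 0.36), and 126.85 and 115.29 CPM in SE + LEV 2 days mice, a logFC of -2.16 (adjusted p = 1).

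The NuRD complex, through which the Nab proteins repress, had 12 of 13 listed subunits tested. *Rbbp7*, a histone-binding subunit that NuRD shares with other complexes, rose at 6 h, from 289.59 and 347.82 CPM in pre-SE to 869.59 and 606.05 CPM (logFC 1.19, limma adjusted p = 0.047). It was the 1 subunit called at 6 h, where 2.76% of all genes were called higher. None was called at 2 days after SE, or with LEV against SE at either time, by limma, DESeq2 or either edgeR test. None had an unadjusted p under 0.05 by limma in these comparisons. In the LEV difference averaged over both times, 1 subunit had an unadjusted p under 0.05 by limma, lower, beside 3.63% of all genes. *Chd4*, the remodelling ATPase that binds Nab2, had a logFC of -0.57 at 6 h (adjusted p = 0.32) and 0.01 at 2 days.

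A list of 14 other activity-regulated early genes served to set the Egr factors beside their class. At 6 h after SE 12 of 14 rose, all but *Nr4a3* and *Ier5*, with a median logFC of 3.11, and at 2 days 10 of 14 rose, with a median of 2.57. Over all genes, 2.76% and 5.07% were called higher. The median over the 4 Egr factors was 3.57 and 2.44. *Fos*, the prototype of the class, had 4 and 9.98 CPM in pre-SE and 276.28 and 227.69 CPM in SE 6 h (logFC 5.29, limma adjusted p = 0.0023), *Fosb* had a logFC of 6.22, *Maff* one of 5.70, and *Npas4*, a neuronal factor set off by calcium entry, one of 5.66. *Atf3*, a stress factor, had 6.63 at 6 h and 5.90 at 2 days, both called.

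With LEV none of the 14 early genes was called by limma at either time. The estimates were below 0 for 13 of 14 at 6 h and for 14 of 14 at 2 days, with medians of -1.66 and -1.67. An unadjusted p under 0.05 was found for 11 and 9 of them, all lower, beside 3.42% and 1.39% of all genes. *Npas4* had the lowest logFC of the list at 6 h, -4.18 (30.63 and 10.72 CPM with LEV, 580.22 and 189.39 without, limma adjusted p = 0.075). The values of *Egr1*, *Egr2* and *Egr4* with LEV, -1.91 to -2.60 at 6 h, lay within the range of this list, and the 0.32 of *Egr3* lay above its highest estimate, 0.05 for *Ier5*. DESeq2 called *Btg2*, *Npas4* and *Nr4a1* lower at 6 h and *Btg2* and *Npas4* at 2 days, the edgeR exact test called 4 and 2 lower, and the edgeR quasi-likelihood test called 0. In the LEV difference averaged over both times, 12 of 14 had an unadjusted p under 0.05 by limma, all lower, beside 3.63% of all genes. There limma and the edgeR quasi-likelihood test called none of the 14. DESeq2 called 8 of them lower, among 82 of 15851 genes, and no Egr or Nab member.

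**Figure D5:**
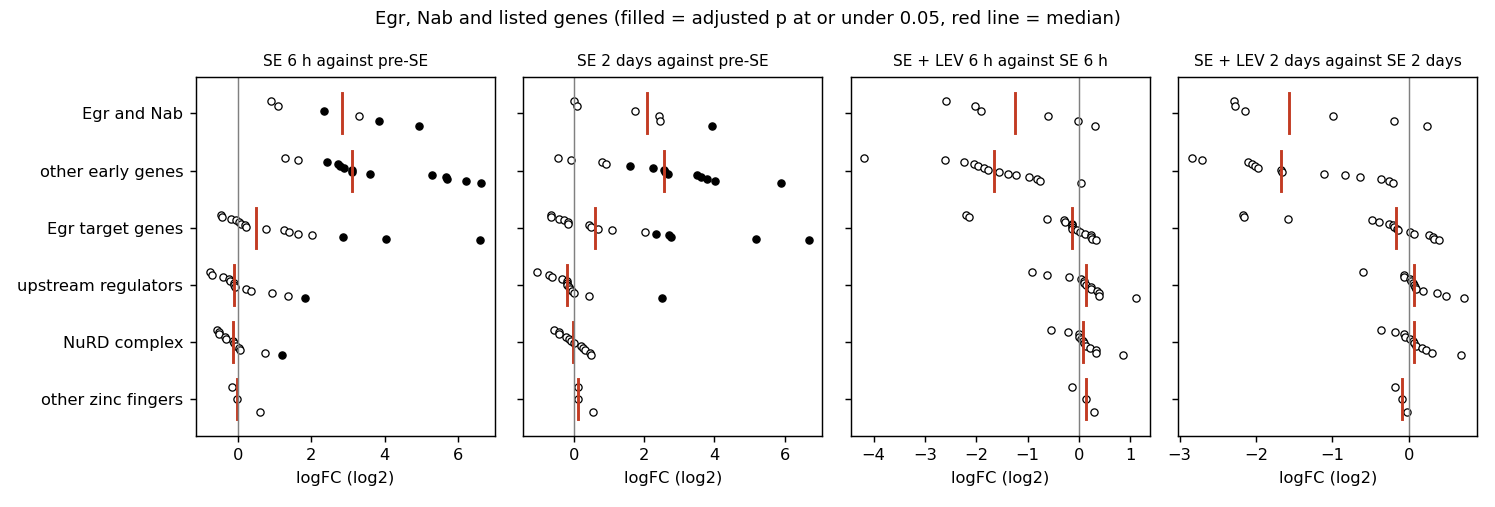
Fitted logFC (log2 scale, axis range set for each panel) of the Egr and Nab members and of the 5 gene lists in 4 comparisons, one point a gene; filled points had an adjusted p at or under 0.05 and red lines are medians. After SE the early genes had medians of 3.11 and 2.57, and the medians of the upstream regulators and of NuRD lay between -0.20 and -0.03.

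The genes whose profile over the 10 libraries was most like that of each member were found among 14221 genes with a mean of at least 1 CPM. Likeness was the root mean square (RMS) of the differences between the 2 genes' log2(CPM + 0.1) values, each centred on its own mean, so that a smaller value means a closer match. *Egr1*, whose own values varied with an RMS of 1.48, was closest to *Nr4a1* (0.28), an activity-induced nuclear receptor, *Egr4* (0.40) and *Junb* (0.45). *Egr2* (own RMS 1.89) was closest to *Fos* (0.59), *Egr4* (0.74) and *Nfil3* (0.79). *Egr4* (1.65) was closest to *Egr1* (0.40), *Nr4a1* (0.52) and *Nfil3* (0.61).

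*Egr3* (own RMS 1.09) had no other Egr factor among its 3 nearest, which were *C2cd4b* (0.49), *6820408C15Rik* (0.50) and *Gxylt2* (0.51). *Gxylt2* had its highest group in SE + LEV 6 h, like *Egr3*. For *Nab1* (0.606) the nearest were *Ildr2* (0.15), *Jmjd1c* and *Fyn* (both 0.16), and for *Nab2* (0.469) they included *Uspl1* (0.14) and *Cltc* (0.19). The profiles share libraries and scaling, and a gene that varies little has a small distance to many others, so these values describe the libraries and carry no test.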

How the data were processed

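CAGE libraries were made from total RNA of the whole hippocampus of 10 mice. According to the study's methods, the authors aligned tags to mouse mm9 by BWA 0.7.17, then those left over by HISAT2 2.0.5, clustered them with the RECLU pipeline and discarded clusters under 0.1 CPM or with an irreproducible discovery rate of 0.1 or more; the step from clusters to genes is not given in the sources used here. The deposited values are CPM per gene, rounded, and 0 columns were left unmapped. Since 100% of the values came out as whole tags within the rounding, tag counts and their totals over the listed genes were recovered from them. Of 15900 genes, the 15851 that reached 0.1 CPM in 2 or more libraries were fitted with limma 3.58.1 (R 4.3.3) on log2(CPM + 0.1), with 5 group means, a mean-variance trend, and Benjamini-Hochberg adjustment. Alternatives used edgeR 4.0.16 and DESeq2 1.42.0 on the recovered counts, other pseudocounts, filters and scalings, a replicate block, and each mouse left out. The scripts were tested on simulated data. Numbers in the labels mark different mice, and same-numbered mice deviated together with correlations of -0.436 to 0.343, so they were not paired.

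The members and gene lists were chosen with earlier results of these data known. All 6 members were named, up to 4 called genes with the largest logFC from each list, and the 3 genes most like each member, of which 1 is not reported here; *Srf*, *Elk1*, *Chd4*, *Tgfb1*, *Btg2*, *Cdh5*, *Ier5*, *Nr4a3*, *Stat6* and *Tmem194* were named beside these after their values were seen. Promoter windows came from RefSeq (GRCm38.p6).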

Additional observations from a re-analysis of the deposited data

How the results depend on the processing

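With 2 mice a group, many calls were lost or gained with 1 mouse or 1 tool. Of 1308 values of a member's logFC in a comparison under an alternative, 1225 kept their direction and side of the threshold, 16 lost the call, 34 gained one and 33 changed sign, all of the last in members that were not called. For SE 6 h against pre-SE, where 3 members were called, the count was 1 without the mean-variance trend, 5 with DESeq2, and 1 to 4 with a mouse left out (1 without pre-SE replicate 1, pre-SE replicate 2 or SE 6 h replicate 1). For SE 2 days against pre-SE, with 1 called, it was 4 with only the groups compared in the fit, 4 with the edgeR exact test, 2 with DESeq2, and 0 to 2 with a mouse left out (0 without pre-SE replicate 1 or SE 2 days replicate 2, and 2 without any 1 of the 4 mice at 6 h). Over all 15851 genes, limma, DESeq2 and the edgeR exact test called 437, 1008 and 961 higher for SE 6 h against pre-SE. For SE 2 days against pre-SE they called 803, 1260 and 1354 higher. In the other comparisons no member was called in the main setting. The edgeR exact test called 1 for LEV at 6 h, 1 for LEV at 2 days, 1 for SE + LEV 6 h against pre-SE, 2 for SE 2 days against SE 6 h and 1 between the LEV times. DESeq2 called 1 for SE + LEV 6 h against pre-SE and 1 between the LEV times, and the fit with only the groups compared called 1 for SE 2 days against SE 6 h. Leaving out a mouse gave 0 to 1 for SE + LEV 6 h against pre-SE (1 without SE 6 h replicate 1) and 0 to 1 for SE 2 days against SE 6 h (1 without SE 6 h replicate 2). The cause of these differences was not tested.

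With the replicate number as a block, 2 members were called for SE 2 days against pre-SE (*Egr2* and *Egr3*), 1 for SE + LEV 6 h against pre-SE (*Egr3*) and 1 between the LEV times (*Egr3*), and *Egr4* was lost for SE 6 h against pre-SE (adjusted p = 0.051). The block changed no other member's call. In the 2 comparisons whose same-numbered mice had correlations under -0.1, a crossed pairing, added after seeing the data, called 0 members.

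Changes of sign were found in values that were not called, the one farthest from 0 being that of *Egr1* between the LEV times. *Nab1* for SE 2 days against pre-SE (0.01) was -0.01 with DESeq2, -0.03 with the edgeR exact test and -0.43 to 0.45 with a mouse left out. With a mouse left out, LEV at 6 h gave -0.16 to 0.15 for *Nab1*, -1.25 to 0.06 for *Nab2* and -0.41 to 1.05 for *Egr3*, and LEV at 2 days gave -0.34 to 0.82 for *Nab1*. SE + LEV 2 days against pre-SE gave -0.56 to 1.12 for *Egr1*, -0.63 to 0.99 for *Egr4* and -0.33 to 0.83 for *Nab1*. SE 2 days against SE 6 h gave -1.26 to 0.03 for *Egr3*, and the LEV times gave -1.45 to 0.06 for *Egr2* and -2.15 to 0.16 for *Egr1*. The interaction gave -0.24 to 1.07 for *Nab2*, -0.45 to 1.07 for *Egr2*, -1.28 to 1.02 for *Egr1*, -1.72 to 0.98 for *Egr4* and -0.34 to 0.83 for *Nab1*, and the LEV average gave -0.70 to 0.03 for *Egr3* and -0.17 to 0.41 for *Nab1*.

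Counted per 100 *Egr1* tags alone, *Nab2* tags numbered 27.6 in pre-SE, 4.59 in SE 6 h, 15.3 in SE + LEV 6 h, 5.02 in SE 2 days and 21.2 in SE + LEV 2 days, the same order as per 100 Egr tags. The edgeR exact test could not be fitted to the interaction or the LEV average. The smallest count behind a member's value was 36 tags, and each mean rests on 2 mice.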
